A study of Mus musculus with 6 samples.

Results

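The genes described here encode the enzymes, saposins, sterol carriers and membrane proteins of the lysosome. They comprise the cathepsins, whose symbols are Cts and a single letter, and 28 other named genes. That rule names 46 genes, 18 of them cathepsins, and was applied to the probe sets to which the platform annotation gives a single gene symbol. A probe set is a group of short oligonucleotides that together measure a transcript. Probe sets were found for 45 of the 46 genes, out of 18193 genes with a single symbol on the arrays. They number 73 of 22626 on the Affymetrix MOE430A array and 22 of 22511 on its companion, MOE430B. Cd63, a tetraspanin of late endosomes, was not analysed here.

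All 6 arrays hold total RNA of DR4 mouse embryonic fibroblasts from embryos of day 15. DR4 cells are feeder cells, grown beneath embryonic stem cells. They were profiled so that stem cell samples of the lines J1, R1 and V6.5, not analysed here, could be set against them. Each of 3 replicates was hybridized to both array types. Replicate 1 came from 12x10e6 cells and RNA at 2.4 ug/ul, whereas 3x10e6 cells and RNA at 3.0 ug/ul stand behind replicates 2 and 3, in the notation of the labels. The medium of all replicates was D-MEM, supplemented with 15% serum and with LIF, a cytokine that holds mouse stem cells undifferentiated, on 0.1% gelatin at 37 C. The labels give no strain, no treatment and no second group. Whether the replicates were separate cultures is not said either, so a p-value here reflects the spread among these samples alone, and that spread may be technical. Precision is limited by the number of arrays.

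The lysosome is the acidic compartment in which cells break down proteins, glycans and lipids that were taken up from outside or delivered by autophagy. Most of its soluble enzymes are made in the endoplasmic reticulum, tagged with mannose phosphate in the Golgi and carried by receptors to endosomes, while a proton pump keeps the lumen acid. Loss of a single enzyme lets its substrate pile up, which is the basis of the lysosomal storage diseases. Fibroblasts take up and degrade collagen through this route, and cultured fibroblasts are a standard cell for assays of these enzymes.

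Values are MAS5 signals on a linear scale. The median signal of each array served as the floor, at 687, 683 and 732 on the MOE430A arrays of replicates 1, 2 and 3 and at 846, 913 and 903 on the MOE430B arrays. A probe set counted as above the floor when it passed the median on all 3 arrays of its type, and a gene when any of its probe sets did. Signals cannot be ranked between probe sets, and no MOE430A signal is set against a MOE430B signal. All 14 measured fibroblast markers were above the floor, where 54.8% of all genes with a single symbol were. Of markers for other cells, 4 of 17 were above it for macrophages, 3 of 7 for osteoclasts, 2 of 10 for embryonic stem cells, 1 of 4 for trophoblast, 1 of 9 for mast cells and neutrophils and 1 of 8 for T and NK cells. In RNA of a whole culture, fewer cells of a type and less RNA per cell cannot be told apart.

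DR4 fibroblasts held transcripts of nearly all general lysosomal enzymes, while Ctsg, Ctss and Ctsw, known from blood cells, and the placental cathepsins lay under the floor. Of the 45 measured genes, 36 were above the floor (80.0%), where 54.8% of all genes with a single symbol were. By probe sets, 53 of 73 were above it on MOE430A, where 42.5% of all probe sets were, and 10 of 22 on MOE430B, where 37.4% were. The 9 genes not above the floor were Ctsg, Ctss, Ctsw, Ctsj, Ctsm, Ctsq, Ctsr, Manba and Npc1. With the 75th percentile of each array as a stricter floor, 27 genes were above it, against 30.7% of all genes. With the highest tryptophan control of each array as the floor, 36 genes were, against 44.0% of all genes. On MOE430B that floor left 8 lysosomal probe sets above it, against 16.2% of all probe sets.

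**Figure D1:**
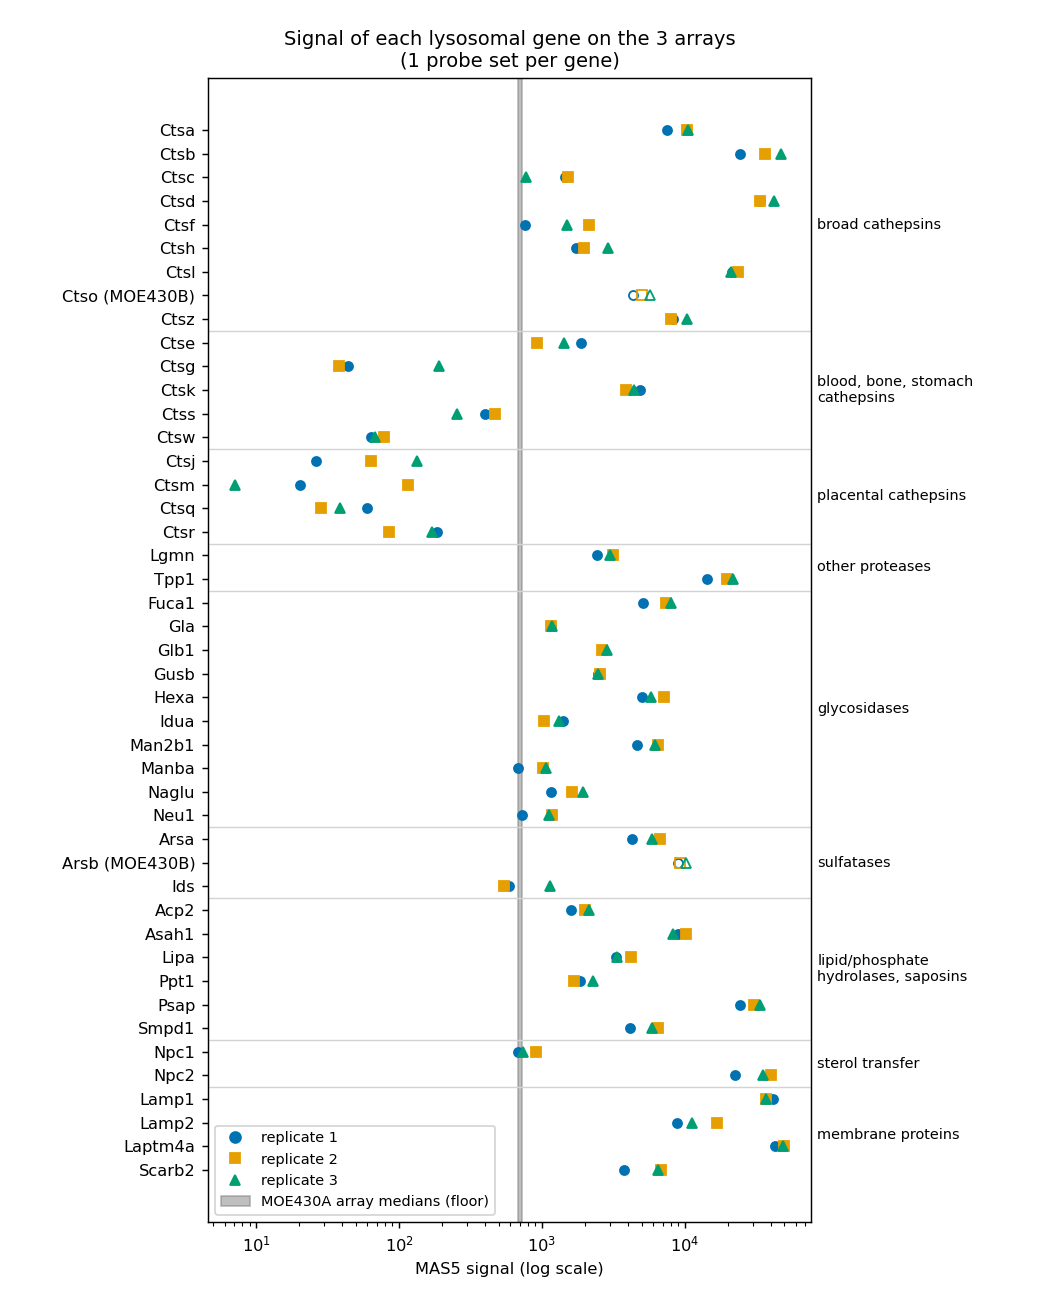
MAS5 signal on a log axis of each measured lysosomal gene, shown by 1 probe set per gene, with a point for each replicate (filled symbols, MOE430A; open symbols, MOE430B). The grey band spans the MOE430A medians of 683 to 732, and the 4 placental cathepsins and Ctsg, Ctss and Ctsw lie left of it on every array, while Ids, drawn by a MOE430A probe set, was above the floor only on MOE430B.

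The cathepsins made by most tissues were all above the floor, 9 of 9. Ctsd, the main aspartic protease of the lysosome, had signals of 33812, 33468 and 42369 in replicates 1, 2 and 3. Ctsb, a cysteine protease, had 24565, 36316 and 47101 on its brightest probe set. Ctsl, a cysteine endopeptidase, had 21380.4, 23522 and 21029. The replicates lay close together for Ctsl and Ctsd, with SDs of 0.087 and 0.19 on the log2 scale. They lay apart for this Ctsb probe set, lowest in replicate 1, with an SD of 0.47. Another bright Ctsb probe set had 26548, 25792 and 38545, lowest in replicate 2, as were the dimmer ones on MOE430A. Ctsa, a carboxypeptidase that also shields the lysosomal beta-galactosidase and sialidase, had 7514, 10462 and 10597 on MOE430A and 4787, 5537 and 6568 on MOE430B, so that replicate 1 was the lowest array of both types. Ctsz, another carboxypeptidase, had 8357, 8044 and 10447. Ctsh, an aminopeptidase, had 1722, 1967 and 2914. Both were highest in replicate 3. Ctso, a cysteine protease measured on MOE430B only, had 4323, 5067 and 5749.8, again highest in replicate 3. The 2 members nearest the floor were also the most variable of the group. Ctsf had 768, 2123 and 1489, lowest in replicate 1. Ctsc, a dipeptidyl peptidase that activates the serine proteases of immune granules, had 1459, 1534 and 775, lowest in replicate 3.

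Among the 5 cathepsins known from blood, bone or stomach cells, 2 were above the floor. Ctsk, the collagen-degrading protease of osteoclasts, had 4835, 3865 and 4395, well above the floor on every array. Ctss, a protease of antigen-presenting cells, had 401, 471 and 254, below it on every array. Ctsk and Ctss are neighbours on chromosome 3 with 0 protein-coding genes between them, and lay on opposite sides of the floor. Ctsg, a serine protease of neutrophil granules, had 44.0, 38.2 and 191, and Ctsw, known from cytotoxic lymphocytes, had 64.05, 79.0 and 67.6. Ctse, an aspartic protease of the stomach lining and immune cells, was above the floor by 1 of its 2 probe sets, with 1891, 924 and 1436. Its other probe set, with 655, 799 and 1833, was under the floor in replicate 1, where the first was highest. Of 7 osteoclast markers beside Ctsk, 3 were above the floor (42.9%), where 54.8% of all genes with a single symbol were. They were Nfatc1, Dcstamp and Tnfrsf11a, the last narrowly and by 1 of its 2 probe sets, with 769, 835 and 803. Dcstamp, on MOE430B, had 2006, 2005 and 1953. In replicates 2 and 3 that was under the highest tryptophan control of the array, at 2348 and 2229. Acp5, Calcr, Oscar and Mmp9 were not above the floor. Acp5, the acid phosphatase that defines osteoclasts, had 114, 120 and 94.7.

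A further cluster of mouse cathepsin genes on chromosome 13 is known from the placenta, and 0 of the 4 measured were above the floor. Ctsj had 26.4, 63.6 and 135, and Ctsm had 20.2, 115 and 7.15. Ctsq had 59.8, 28.6 and 38.7, and Ctsr had 185, 84.6 and 171. No array reached the floor for any of them. Ctsj, Ctsq and Ctsr follow one another with 0 protein-coding genes between them, and Ctsm lies 3 protein-coding genes from Ctsr. Among trophoblast markers Hand1 was above the floor, and Tpbpa, a marker of the spongiotrophoblast, had 251, 196 and 58.9, below it.

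The other proteases and the glycosidases were nearly all above the floor. Tpp1, a peptidase that removes tripeptides and is lost in a form of neuronal ceroid lipofuscinosis, had 14454, 19847 and 21851 on its brighter probe set. Lgmn, the asparaginyl endopeptidase that also matures several cathepsins, had 2419, 3145 and 2985. Replicate 1 was lowest for both. Of 10 glycosidases, 9 were above the floor. Fuca1, which removes fucose, had 5088, 7450 and 7988. Hexa, a subunit of the hexosaminidase lost in Tay-Sachs disease, had 5047, 7212 and 5823. Man2b1, the lysosomal alpha-mannosidase, had 4673, 6481 and 6153. In all 3 of these, replicate 1 was the lowest array. Gla, the alpha-galactosidase lost in Fabry disease, Glb1, the beta-galactosidase, Gusb, the beta-glucuronidase, Naglu and Idua, which degrade heparan sulfate, and Neu1, a sialidase, were also above the floor. Manba, the beta-mannosidase, had 676, 1024 and 1076, just under the floor in replicate 1 and above it in the other replicates.

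All 3 sulfatases and all 6 lipid and phosphate ester genes were above the floor. Arsa, which removes sulfate from the myelin lipid sulfatide, had 4273, 6684 and 5888. Arsb, which acts on dermatan sulfate, had 8962, 9293 and 10223 on MOE430B. Ids, the iduronate sulfatase lost in Hunter syndrome, had 14366, 12998 and 16686 on MOE430B. Arsb and Ids differed little between replicates, with SDs of 0.098 and 0.18 on the log2 scale. Psap, the precursor of the saposins that present lipids to the hydrolases, had 24320, 30791 and 33684 on its brighter MOE430A probe set. Asah1, the acid ceramidase, had 8997, 10215 and 8280.0. Smpd1, the acid sphingomyelinase, had 4174, 6478 and 5900.2. On these probe sets Psap and Smpd1 were lowest in replicate 1 and Asah1 in replicate 3. Lipa, the acid lipase, Ppt1, a palmitoyl thioesterase, and Acp2, an acid phosphatase, were above the floor as well.

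Npc2 and Npc1 hand cholesterol out of the lysosome, the first as a soluble carrier and the second in the membrane. Npc2 had 22360, 40080 and 35578 on its brighter MOE430A probe set, lowest in replicate 1. Npc1 had 678, 908 and 743 on its probe set, straddling the floor, since replicate 1 was just under it. All 4 measured membrane protein genes were above the floor. Laptm4a, a transmembrane protein of lysosomes, had 43161, 49471 and 48812. Lamp1, a major glycoprotein of the lysosomal membrane, had 41406, 37406 and 37404. Lamp2, its relative with a part in autophagy, had 8827, 16789 and 11219. Lamp1 was highest in replicate 1, where Laptm4a and Lamp2 were lowest. Scarb2, the receptor that carries glucocerebrosidase to lysosomes, is described with the probe sets that disagree.

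Promoters of lysosomal genes are known for a short palindromic element that the transcription factors Tfeb, Tfe3 and Mitf bind. RefSeq promoter windows of build GRCm38.p6, from 250 bases before to 50 bases after each start, were listed for 40 of the 46 genes. The E-box CACGTG lay in the windows of 10 of the 40 (25%), against 8.09% of 27025 genes. The longer form GTCACGTG, searched on both strands and containing the E-box, lay in 8 of the 40 (20.0%), against 2.55% of all genes. The motifs were chosen with the earlier results known, and a match describes these letters in this window and shows no binding. All 8 genes with GTCACGTG were above the floor, among 32 above it with a listed window, and 0 of the 7 measured genes with a window that were not above the floor held it. Of those 7, 4 are the placental cathepsins. The share with the motif among all genes on each side of the floor was not counted, and a link between motif and floor was not tested. The 8 windows are shown 5' to 3' on the strand of the gene, because they are what these genes share outside the signals. Capitals mark the motif, written CACGTGAC where it lies on the opposite strand. They lie at chr15:89477409-89477468 (Arsa, minus strand), chr2:164833733-164833792 (Ctsa, plus), chr7:142387892-142387951 (Ctsd, minus), chrX:134601168-134601227 (Gla, minus), chr9:114401002-114401061 (Glb1, plus), chr8:13159107-13159166 (Lamp1, plus), chr12:102439110-102439169 (Lgmn, minus) and chr11:101069993-101070052 (Naglu, plus).
Arsa: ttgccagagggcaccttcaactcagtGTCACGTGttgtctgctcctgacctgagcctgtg
Ctsa: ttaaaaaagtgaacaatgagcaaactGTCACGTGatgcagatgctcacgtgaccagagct
Ctsd: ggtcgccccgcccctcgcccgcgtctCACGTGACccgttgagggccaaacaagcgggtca
Gla: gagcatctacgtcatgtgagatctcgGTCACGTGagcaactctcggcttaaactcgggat
Glb1: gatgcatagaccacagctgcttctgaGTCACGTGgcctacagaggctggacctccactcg
Lamp1: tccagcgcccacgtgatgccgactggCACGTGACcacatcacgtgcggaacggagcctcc
Lgmn: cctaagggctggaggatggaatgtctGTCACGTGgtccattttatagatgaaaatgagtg
Naglu: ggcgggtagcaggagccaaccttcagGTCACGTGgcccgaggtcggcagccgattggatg

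Counted from the start, the first base of the marked motif lay between positions -98 (Ctsd) and -14 (Ctsa) in 7 of these genes and at -196 in Gla. Ctsa and Ctsd hold a further copy, at 5 and at -245. Of the regulators that bind such elements, Tfe3 was above the floor on MOE430B, with 17858, 11221 and 11248, highest in replicate 1. Tfeb had 733, 220 and 563 on MOE430A, above the floor in replicate 1 only, and Mitf (601, 501 and 399) and Tfec (32.4, 26.3 and 16.3) were under it on every array of these probe sets. Tfe3 was at 0.67 on the log2 scale in replicate 1 relative to the others, with an adjusted p of 0.795 by limma.

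The labels set replicate 1 apart from replicates 2 and 3 by its number of cells and its RNA concentration and volume, so these were compared. Scan day and fluidics station also differed among arrays of a type, as given with the values they touch. No lysosomal probe set passed the test, but most were lower in replicate 1 on MOE430A. limma on log2(signal + 16), with Benjamini-Hochberg adjustment over 11086 tested probe sets, called 0.704% of them on MOE430A (24 higher in replicate 1, or 0.216%, and 54 lower, or 0.487%) and 0 of the 59 lysosomal ones. At an unadjusted p under 0.05, 6 lysosomal probe sets were lower and 1 was higher, where 8.13% of all tested probe sets passed in either direction and 5% passed as lower. After quantile normalization 3 were lower at that p, and without the filter on low signals 0. On MOE430B it called 0 of 10615 probe sets (0%) and 0 of the 12 lysosomal ones. There 1 of the 12 was lower at an unadjusted p under 0.05, against 7.22% of all in either direction and 5.38% as lower. Each fit had 1 residual degree of freedom, so the spread of replicate 1 is taken to equal that of the other arrays. The variance came mostly from the pool of all tested probe sets, with 26.5 prior degrees of freedom on MOE430A and 3.47 on MOE430B. A standard error (SE) or p given here thus mostly reflects that pooled spread and little of the probe set's own. A p that misses the threshold does not show that the arrays were alike.

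On MOE430A, 51 of the 59 tested lysosomal probe sets were lower in replicate 1 (86.4%), where 51.1% of all tested probe sets were. Their median difference was -0.36 on the log2 scale, against -0.01 for all. A probe set entered the test by its mean signal, so the 59 include some not above the floor on all 3 arrays. They are a probe set each of Ctse, Manba, Neu1, Acp2, Npc1 and Ids. All of these were lower in replicate 1. Except for Ids, they were under the floor in replicate 1 only, and so passed the filter through replicates 2 and 3. Replicate 1 lay below both other arrays for 40 of the 59, against 35.6% of all, and above both for 5, against 33.2%. Replicate 2 was the lowest array for 12 (30.8% of all) and the highest for 25 (30.6% of all), and replicate 3 the lowest for 7 (33.6% of all) and the highest for 29 (36.3% of all). Several of the 59 belong to the same gene. Of 34 genes above the floor and shown by a MOE430A probe set, 29 were lower in replicate 1, with a median of -0.36. For 22 of them replicate 1 lay below both other arrays, and the share over all genes was not counted. The direction held against each other array alone, though every count rests on the same replicate 1 array. Replicate 1 was below replicate 2, which shared its scan day and fluidics station, for 45 of the 59 with a median of -0.32, against 50.6% of all, and below replicate 3 for 49 with a median of -0.41, against 51.9% of all. It also held at each brightness. Between the 50th and 75th percentiles of mean signal 13 of 17 were lower (52.8% of all), from the 75th to the 90th 15 of 17 (50.9% of all), and above the 90th 23 of 25 (47.1% of all). All 12 tested probe sets of the lipid and phosphate ester genes were lower in replicate 1, with a median of -0.39, as were 13 of 15 of the glycosidases at -0.43, 11 of 13 of the broadly expressed cathepsins at -0.24 and 6 of 8 of the membrane protein genes at -0.40.

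**Figure D2:**
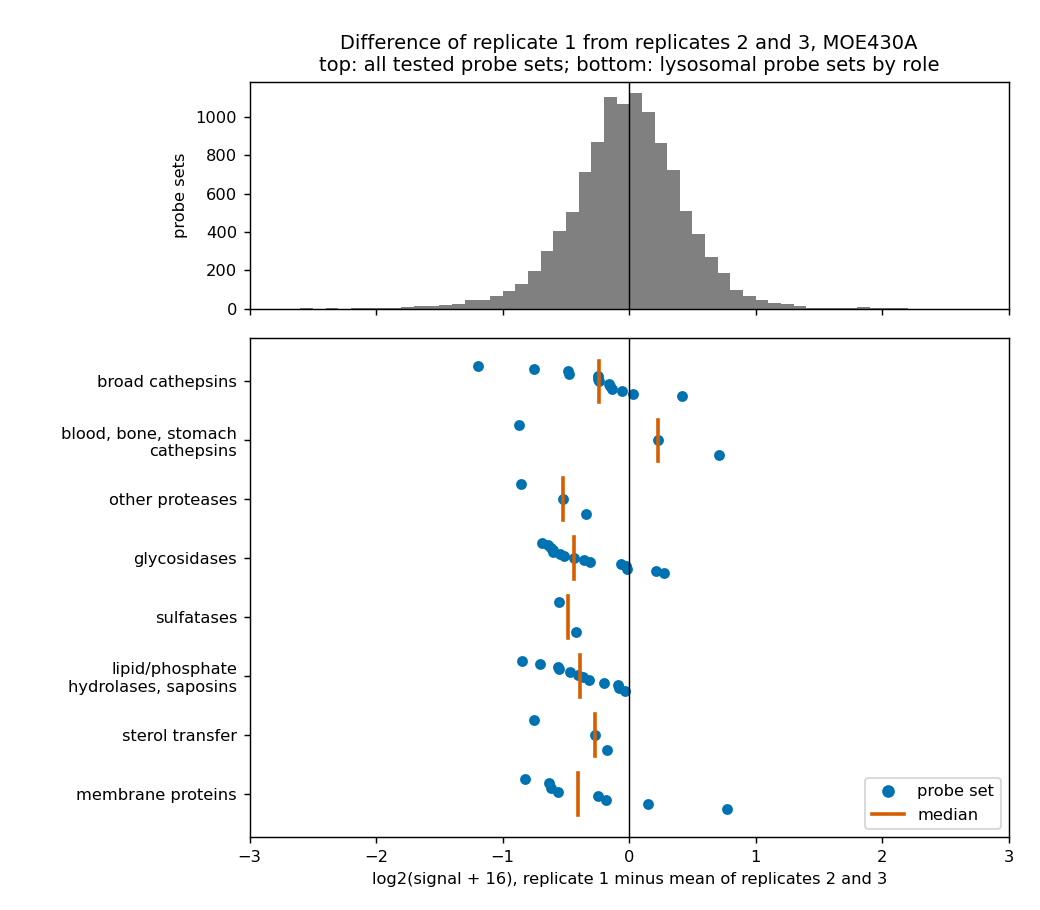
Difference in log2(signal + 16) of replicate 1 from the mean of replicates 2 and 3 on MOE430A, as a histogram of all 11086 tested probe sets above and as points for the 59 lysosomal probe sets by role below, with the median of each role as a bar. The histogram is centred near 0, and 51 of the 59 points lie left of it.

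Ctsf had the lowest value, with the 768, 2123 and 1489 given above. Its difference was -1.19 ± 0.38 (SE) and its adjusted p 0.182 by limma, the smallest among lysosomal probe sets on MOE430A. The next lowest difference was that of the dimmer Ctse probe set, at -0.87 and under the floor in replicate 1. The dimmer probe set of Tpp1 had 1735, 2987 and 3321, at -0.85 with an adjusted p of 0.492 by limma. An Acp2 probe set had 501, 749 and 1109, at -0.84, and was under the floor in replicate 1. In Tpp1 and Acp2, replicate 1 was below both other arrays. The highest values in replicate 1 were those of a Scarb2 probe set, the other Ctse probe set at 0.71, Ctsc at 0.41, an Idua probe set (1409, 1029 and 1313) at 0.27 and Ctsk at 0.23. Replicate 1 was above both other arrays for the Idua probe set and for Ctsk, and between them for Ctsc.

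On MOE430B the direction was not the same in every setting. Of the 12 tested lysosomal probe sets, 8 were lower in replicate 1, with a median of -0.08, where 47.4% of all were, and replicate 1 lay below both others for 5, against 33.9% of all. Without replicate 3, 5 of the 12 were lower and the median was 0.04, and without replicate 2, 8 of the 12 were lower and the median was -0.23. A Ppt1 probe set had 601, 1831 and 1761, the lowest value at -1.55. It was under the floor of 846 in replicate 1, and passed the filter through replicates 2 and 3. Psap was the 1 member among 100 probe sets printed on both array types, and its MOE430B signals of 111326, 128595 and 144313 kept the order of its MOE430A signals. The difference was -0.40 on MOE430A and -0.29 on MOE430B. Of the 100 shared probe sets, 66 had the same sign of difference on both types. Another Psap probe set on MOE430A had 19025, 18428 and 30432, lowest in replicate 2, at -0.32. The other low values on MOE430B were an Arsb probe set (934, 764 and 2170) at -0.46, Ctsa at -0.33 and Ctso at -0.32. The highest were Smpd1 at 0.58, a dimmer Ctso probe set (1908, 1068 and 1756) at 0.47, Npc2 at 0.23 and an Arsb probe set (1834, 1825 and 1371) at 0.21. Ctsh was at -0.02, with 4182, 3647 and 4943.

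The other hydrolase, membrane, pump and sorting genes were nearly all above the floor too. Of 12 other lysosomal hydrolases measured, 12 were above the floor, and of 12 other membrane proteins 11, of 15 proton pump genes 15 and of 14 sorting genes 13. Of 7 regulators 4 were (57.1%), near the 54.8% of all genes with a single symbol, and of 5 measured cathepsin inhibitors 2. limma called 0 probe sets of each list on both array types. At an unadjusted p under 0.05 on MOE430A, 4 of 18 other hydrolase and 2 of 16 sorting probe sets were lower, and 0 of the pump and 0 of the other membrane proteins, where 5% of all tested probe sets were. On MOE430A, 10 of 18 other hydrolase probe sets were lower in replicate 1 (median -0.05), 6 of 11 of the other membrane proteins (-0.04), 10 of 16 of the sorting genes (-0.14) and 7 of 29 of the proton pump (0.11), where 51.1% of all tested probe sets were lower. The lowest sorting values were those of the Igf2r probe sets, at -1.05 and -0.96. The lowest hydrolase values were those of Gm2a (-0.98 and -0.87), Galns (-0.95) and a Plbd2 probe set (-0.80). The counts of probe sets thus stand for fewer genes. The difference between these lists and the lysosomal genes was not tested. Scpep1, a carboxypeptidase, had 15272, 18519 and 17851, and Gm2a, the activator that Hexa needs, had 2429, 3889 and 5098. Both were lowest in replicate 1. Aga, which removes glycans from asparagine, had 36231, 38190 and 35130.0 on MOE430B. Lamtor1, an anchor of nutrient signalling at the lysosome, had 11070, 11375 and 9697, and Laptm4b, a relative of Laptm4a, had 11369.0, 7985 and 7605. Atp6v0e and Atp6v1a, subunits of the pump, had 9814, 9942 and 8462 and 8790, 7631 and 6603. Replicate 1 was thus the highest array for Laptm4b and Atp6v1a. Igf2r, the larger of the mannose phosphate receptors, had 5681, 9883 and 12331, lowest in replicate 1, at -0.96 with an adjusted p of 0.368 by limma. Both cathepsin inhibitors above the floor are cystatins. Cst3, the secreted cystatin C, had 14170, 24248 and 37351, at -1.09 with an adjusted p of 0.277. Cstb, the cytosolic cystatin B, had 18587, 19596 and 13395, with no such order.

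**Figure D3:**
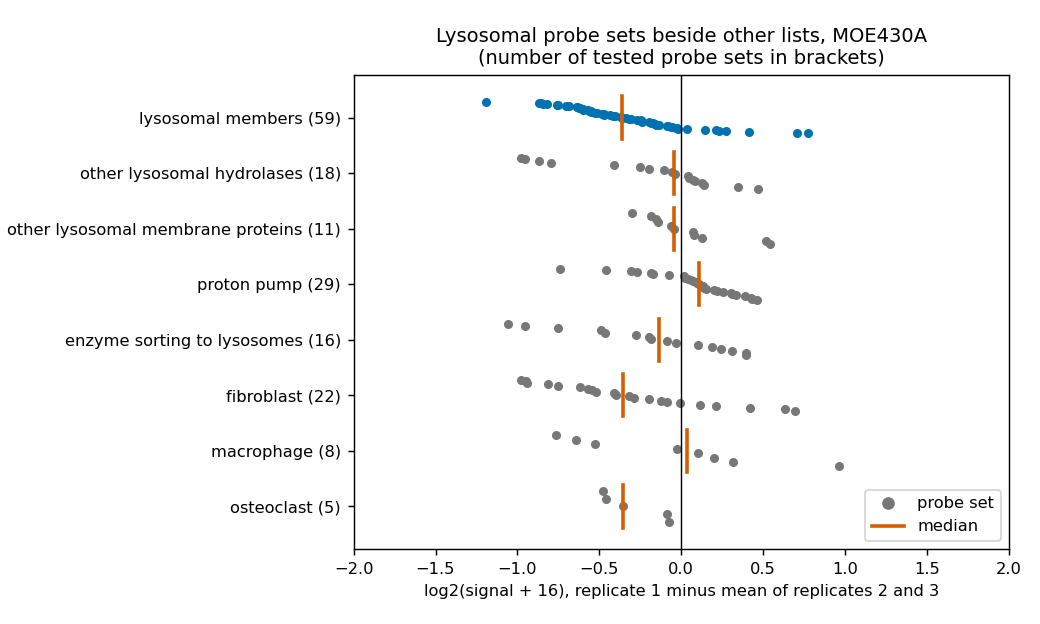
Difference in log2(signal + 16) of replicate 1 from the mean of replicates 2 and 3 on MOE430A for each tested probe set (points) of the lysosomal genes, other lysosome lists and markers of 3 cell types, with medians as bars. The lysosomal genes, the fibroblast markers and the 5 osteoclast probe sets have medians of -0.36, and the proton pump has a median of 0.11.

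Markers of cell type and signs of RNA quality were read beside this difference. Fibroblast markers were lower in replicate 1 for 17 of 22 probe sets on MOE430A, with a median of -0.36, and limma called 0 of them. Col3a1, a fibrillar collagen, had 45840, 91349 and 84935, Lum 3118, 6886 and 5490 and Dcn 9449, 22832 and 12055. These had the largest falls among the fibroblast markers, each lowest in replicate 1. The 3 brightest markers were less uniform. Vim had 164029, 130581 and 153518, Col1a2 119800, 147295 and 169211 and Sparc 103001, 103466 and 122123. Of the 22 probe sets, 5 were higher in replicate 1. They were those of Vim (at 0.63, 0.21 and 0.42), of Thy1 (38911, 35603 and 16217) and of S100a4, at 0.11. Macrophage markers, from cells rich in cathepsins, were lower for 4 of 8, with a median of 0.04. Their summed MOE430A signal was 15507, 15387 and 14086, and 4 of 17 genes were above the floor (Csf1r, Lyz2, Cd14 and Laptm5). Lyz2 had 2279, 2443 and 1367, and a Csf1r probe set 1945, 1694 and 1940. Cd68 had 731, 781 and 707, under the floor in replicate 3 only. Ptprc, which all leukocytes carry, had 56.9, 29.9 and 181, and Fcgr3 66.6, 54.9 and 81.0, far below the floor. Osteoclast markers were lower in replicate 1 for 5 of 5 tested probe sets on MOE430A, with a median of -0.36, and their summed signal was 4943, 5471 and 5902. Those 5 belong to Nfatc1, Oscar and Tnfrsf11a. The ratio of 3' to 5' probe sets was 1.05, 1.17 and 1.09 for Actb and 1.27, 1.16 and 0.846 for Gapdh in replicates 1, 2 and 3 on MOE430A. On MOE430B it was 1.02, 1.33 and 1.10 for Actb and 1.32, 1.24 and 0.802 for Gapdh. Gapdh was highest in replicate 1 and lowest in replicate 3 on both types. On MOE430B replicate 1 was alone on its fluidics station, so the station and the replicate cannot be told apart on that type. The part of these markers and ratios in the difference of replicate 1 was not tested.

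Probe sets of a gene often disagreed, in level or in direction. Of 26 lysosomal genes with several probe sets over both array types, 12 had all of them above the floor and 14 were split. On MOE430A, 15 genes had more than 1 tested probe set. All were lower in replicate 1 for 10 of these genes, all higher for 0, and mixed for 5 (Ctsb, Ctse, Gusb, Idua and Scarb2). Scarb2 gave the widest split. One of its probe sets had 3766, 6875 and 6465, lowest in replicate 1, and the other had 3299, 2024 and 1830.2, highest there, at -0.82 and 0.77 on the log2 scale. Their adjusted p by limma were 0.528 and 0.591. Smpd1 was at -0.57 on MOE430A and at 0.58 on MOE430B, where its signals were 7381, 6517 and 3719. Npc2 was at -0.76 and -0.17 on MOE430A and at 0.23 on MOE430B, where its signals were 4853, 4592 and 3749. The 4 probe sets of Lamp2 were all lower in replicate 1, at -0.62, -0.57, -0.64 and -0.24. For Ids, 0 of 5 MOE430A probe sets were above the floor, and the brightest had 588, 547 and 1141, so its detection rests on the MOE430B probe set alone.

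**Figure D4:**
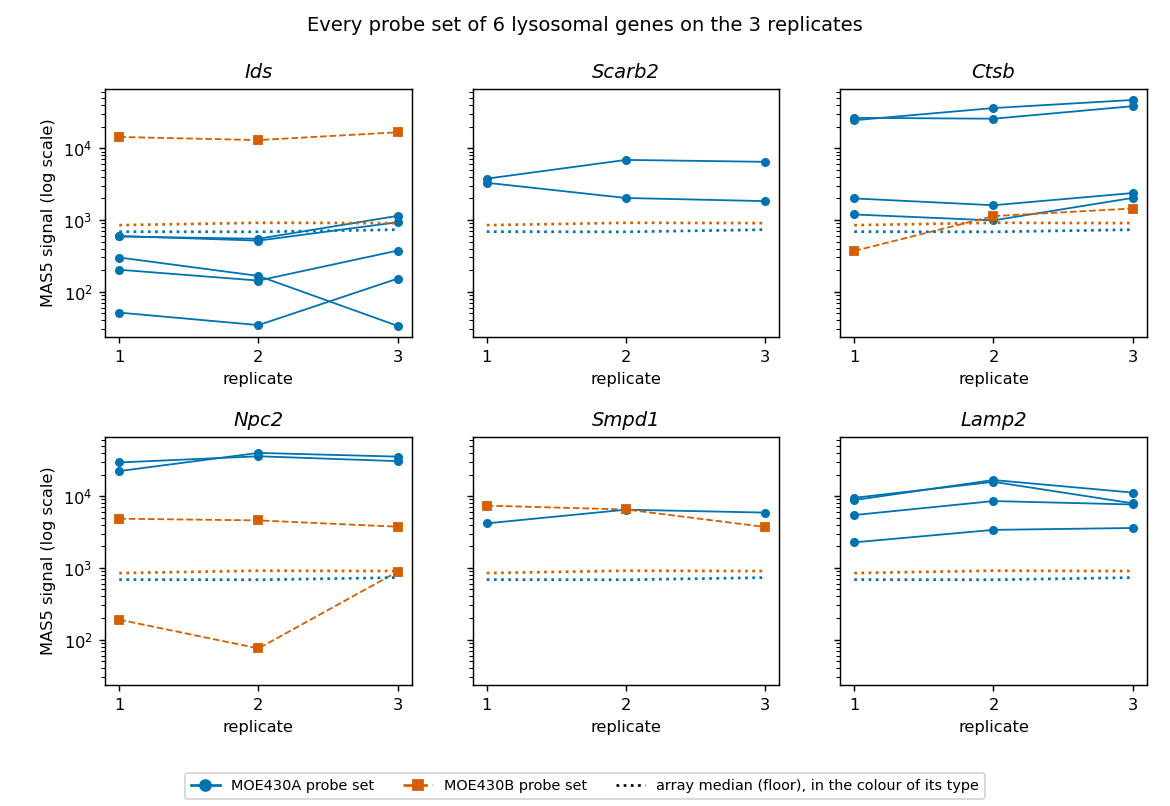
MAS5 signal on a log axis of every probe set of 6 lysosomal genes in the 3 replicates, with circles for MOE430A, squares for MOE430B and dotted lines for the array medians; lines join the values of a probe set and show no order of replicates. The Scarb2 probe sets diverge from replicate 1 to the others, the Lamp2 probe sets are all lower in replicate 1 than in replicate 2, and the 5 Ids probe sets on MOE430A are under the floor in replicates 1 and 2.

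The spread between replicates was described by the SD of log2(signal + 16) over the 3 arrays. On MOE430A its median over lysosomal probe sets above the floor was 0.32, against 0.24 for all probe sets above the floor, or 21.9% and 16.5% as a coefficient of variation of the signal. Without replicate 1 the medians were 0.14 and 0.18. On MOE430B the median was 0.21 for the lysosomal probe sets and 0.28 for all, and 0.13 and 0.23 without replicate 3. The order was reversed without replicate 1, at 0.23 for the lysosomal probe sets and 0.22 for all. It was also reversed without replicate 2, at 0.26 and 0.24. The steadiest on MOE430A was Gla, with 1155, 1162 and 1179 and an SD of 0.015. Gusb had 2470, 2569 and 2468, and a Lipa probe set had 1828, 1960 and 1911, with SDs of 0.033 and 0.050. Glb1, with 2622, 2642 and 2849, and Lamp1 followed at 0.066 and 0.085. Each of these 5 probe sets had an SD under the median of all, but other probe sets of Gusb and Lipa were at 0.35 and 0.36. The widest was Ctsf at 0.73, then Ctsc at 0.54, a dim Ctsb probe set (1192, 986 and 2029) at 0.53, a Lamp2 probe set (9482, 15846 and 7945) at 0.52 and Ctse at 0.51.

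Of the genes with GTCACGTG in their promoter window, 7 of 8 were lower in replicate 1 on MOE430A, with a median of -0.25. Of the 22 other genes above the floor that have a listed window and are shown by a MOE430A probe set, 19 were lower, with a median of -0.39. The ranges overlapped, from -0.60 to 0.15 with the motif and from -1.19 to 0.41 without it. Gla, Glb1 and Lamp1, which own 3 of the 5 steadiest lysosomal probe sets on MOE430A, hold the motif, and so do Arsa and Naglu, at -0.55 and -0.60.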

How the data were processed

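Total RNA of DR4 fibroblasts was hybridized to 3 MOE430A and 3 MOE430B arrays. The deposited intensity values are linear signals, made with MAS5 per the submitters' processing notes. Which version was run, and how background and scaling were set, is not given in the sources used here. On every array the mean without the top and bottom 2% of probe sets lay between 1500.18 and 1500.55. The 64 control probe sets of each type were left out. A single gene symbol, from GEO's platform annotation updated through RefSeq, names 20380 probe sets on MOE430A and 14661 on MOE430B.

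The floor was the array median. Probe sets whose mean log2 signal passed that of the medians entered limma 3.58.1 in R 4.3.3 (lmFit and eBayes on log2 of signal plus a pseudocount of 16), each array type apart, with adjusted p under 0.05 as the call. Fold differences on this scale understate those of dim probe sets. The fit was tested on simulated data. Few of the planted changes were recovered on MOE430B, so 0 calls there say little. On MOE430A most planted changes of 1 on the log2 scale were missed, so 0 calls among smaller differences say little there too. False calls exceeded the threshold's share on both types. Tables were made with Python 3.11.15 and pandas 2.3.3.

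The genes, lists and tests were chosen with earlier results of these data known. Array values are given for the 3 brightest members of each role, every member not above the floor, the 5 steadiest and 5 most variable probe sets of a type, the 5 most different in each direction, the 3 brightest genes of a list, and others the text turns on. Alternatives were other floors, pseudocounts, filters, quantile normalization, eBayes with trend and leaving out each replicate.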

Additional observations from a re-analysis of the deposited data

How the results depend on the processing

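Of 81 values under alternative settings, 72 stayed within the spread between replicates, or within 1.5 times the count reported; 1 of these, the MOE430B median difference of replicate 1, turned from -0.08 to 0.04 without replicate 3. With the floor set at a signal of 200, 17 lysosomal MOE430B probe sets were above it, against 10. On MOE430A limma called 78 of all probe sets, against 0 without the filter on low signals, 0 after quantile normalization and 167 with a trend in eBayes; it called 0 lysosomal probe sets in each of these. The median SD of lysosomal probe sets, 0.32 on MOE430A, ranged from 0.14 to 0.29 when 1 replicate was left out, lowest without replicate 1. On MOE430B it was 0.21, ranged from 0.13 (without replicate 3) to 0.26, and was 0.49 without the filter. The number lower in replicate 1 on MOE430B, 8 of 12, was 15 of 22 without the filter and 5 of 12 without replicate 3; the cause of these changes was not tested. No paired analysis was possible because the groups that share replicate numbers are the array types, and no test compared a type with the other. A dim probe set near the array median has only a weak signal over background, and 3 arrays limit what can be called.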
